A study of Mus musculus with 24 samples.

Results

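The 5 miRNAs described here, mmu-miR-99a-5p, mmu-miR-100-5p, mmu-miR-99b-5p, mmu-miR-125a-5p and mmu-miR-125b-5p, were selected by name from the 1881 mouse miRNAs of the array, as the miR-125 and miR-99/100 miRNAs that share clusters. They were followed in 8 tissues of C57BL/6J mice, namely cornea, iris, lens, retina, choroid, sclera and the 2 brain regions labelled SCN and LGN. Each tissue was measured on 1 array in each of 3 lens groups: mice without a lens (Control), mice with a lens of 0 D (0D) and mice with a lens of -30 D on the right eye (Lens-induced). The lens of -30 D was worn for 3 weeks from 3 weeks of age, and the sources used here do not give these times for the 0D group. For the ocular tissues of the Control and Lens-induced groups, RNA of 3 mice was mixed in equal amounts before hybridization, and the mixing is not given in the sources used here for the 0D arrays or the brain regions. The sample labelled choroid is the RPE/choroid of the study's methods, so it also holds the pigment epithelium.

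miR-125 is the mammalian form of lin-4, the miRNA that times development in the worm, and its seed is carried by both miR-125a and miR-125b. miR-99a, miR-99b and miR-100 share a different seed and belong to the miR-99/100 family, which is known for targeting Mtor and Igf1r, genes of the growth pathway. The mouse genome carries the families side by side in 3 clusters, each with a let-7 gene between a miR-99/100 gene and a miR-125 gene. Each cluster can be transcribed as 1 long primary transcript that is cut into separate hairpins, so that partners may share transcription and still differ in processing and turnover. miR-125b is abundant in brain and in many differentiated cells, and let-7 is known for marking the differentiated state.

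The mature sequences from RefSeq (GRCm38.p6) are shown because the seed, bases 2 to 8 in capitals, divides the 5 miRNAs into their 2 families, and because the families differ from the clusters. The sequence of let-7e, the middle gene of the smallest cluster, is given for its relation to miR-99b and miR-125a below.
mmu-miR-99a-5p: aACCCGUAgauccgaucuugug
mmu-miR-100-5p: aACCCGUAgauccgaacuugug
mmu-miR-99b-5p: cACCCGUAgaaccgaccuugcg
mmu-miR-125b-5p: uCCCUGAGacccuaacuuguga
mmu-miR-125a-5p: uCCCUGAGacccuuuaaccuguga
mmu-let-7e-5p: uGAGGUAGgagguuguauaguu

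Counted from the 5′ end, miR-99a and miR-100 differed by the single substitution U16A, with the base of miR-99a written first. miR-99a and miR-99b differed by A1C, U11A, U16C and U21C, all outside the seed. miR-125a has 24 bases and miR-125b has 22, and they share the first 13 bases. How far the probe of one miRNA also reads a near-identical relative was not tested. The first seed was found in 3 mature mouse miRNAs, which are miR-99a, miR-99b and miR-100. The second was found in 5, of which miR-125a and miR-125b were detected on at least 1 array, while miR-351-5p, miR-6367 and miR-6394 were not detected on any.

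Mir100, Mirlet7a-2 and Mir125b-1 lie at chr9:41531425-41582002, a span of 50578 bases inside the long noncoding RNA gene Mir100hg. Mir99a, Mirlet7c-1 and Mir125b-2 lie at chr16:77598936-77646343, a span of 47408 bases. Mir99b, Mirlet7e and Mir125a lie at chr17:17830188-17830879, a span of 692 bases within the bounds of the protein-coding gene Spaca6. The genes of the 5 miRNAs all lie on the plus strand. Mir125b-1 and Mir125b-2 give the same mature miR-125b, so that a signal of miR-125b cannot be divided between the 2 loci. The other arms, which differ between the loci, did not help: miR-125b-1-3p, miR-125b-2-3p, miR-99a-3p, miR-99b-3p and miR-100-3p were not detected on any of the 24 arrays, and miR-125a-3p was detected on 1 array, the 0D iris, at a scaled signal of 1.18. The relatives by sequence miR-10a-5p and miR-10b-5p were not detected on any array.

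The signal of a miRNA is a fluorescence intensity after background subtraction, summed over its probes above 3 errors and scaled between arrays, and it can be compared between tissues but not between miRNAs. Between 129 and 249 miRNAs were detected per array. The cornea and lens arrays were the dimmest and were raised most by the scaling, with mean log2 factors of 0.81 and 1.44, against -0.70 to 0.13 in the other tissues. The markers fitted several tissue labels. The photoreceptor miRNAs miR-183-5p, miR-96-5p and miR-182-5p were highest in retina, and the epithelial miR-205-5p, miR-203-3p and miR-200c-3p in cornea. miR-219a-5p of oligodendrocytes was highest in LGN, and miR-199a-3p of mesenchymal cells in sclera. Of the neuronal miRNAs, miR-124-3p was highest in retina, miR-9-5p in SCN and miR-128-3p in LGN. In contrast, the 3 miRNAs of striated muscle (miR-1a-3p, miR-133a-3p and miR-206-3p) were highest in the lens arrays, where they summed to 361 to 402 against at most 161 in any other array, which was the 0D sclera. Their part in the lens values below was not tested. Neither miRNA of the pigment cell list was highest in choroid, although that sample holds the pigment epithelium. miR-204-5p was highest in lens (1198 to 1349), with at most 881 in choroid. miR-211-5p was highest in iris (772 to 906), followed by retina (at most 190), and the choroid arrays lay below those of retina. The bulk tissue cannot tell fewer cells of a type from less miRNA per cell.

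miR-99a, miR-100, miR-125a and miR-125b were detected on all 24 arrays, and miR-99b on 22. Each miRNA had 2 probes of 15 spots, and on the arrays where both were above 3 errors their log2 signals correlated with r of 0.95 to 0.99. All 5 miRNAs differed between tissues in the F-test of limma over the 8 tissues, with adjusted p from 3.68e-13 for miR-125a to 2.03e-08 for miR-99b. This does not set them apart, because 100% of the 197 miRNAs tested passed. Of the 28 tissue pairs, 26 were called for miR-125a, 24 for miR-100, 22 for miR-99a, 19 for miR-125b and 17 for miR-99b. Together this was 108 of 140 pairs or 77.1%, near the 75.7% called over all miRNAs and pairs.

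**Figure D1:**
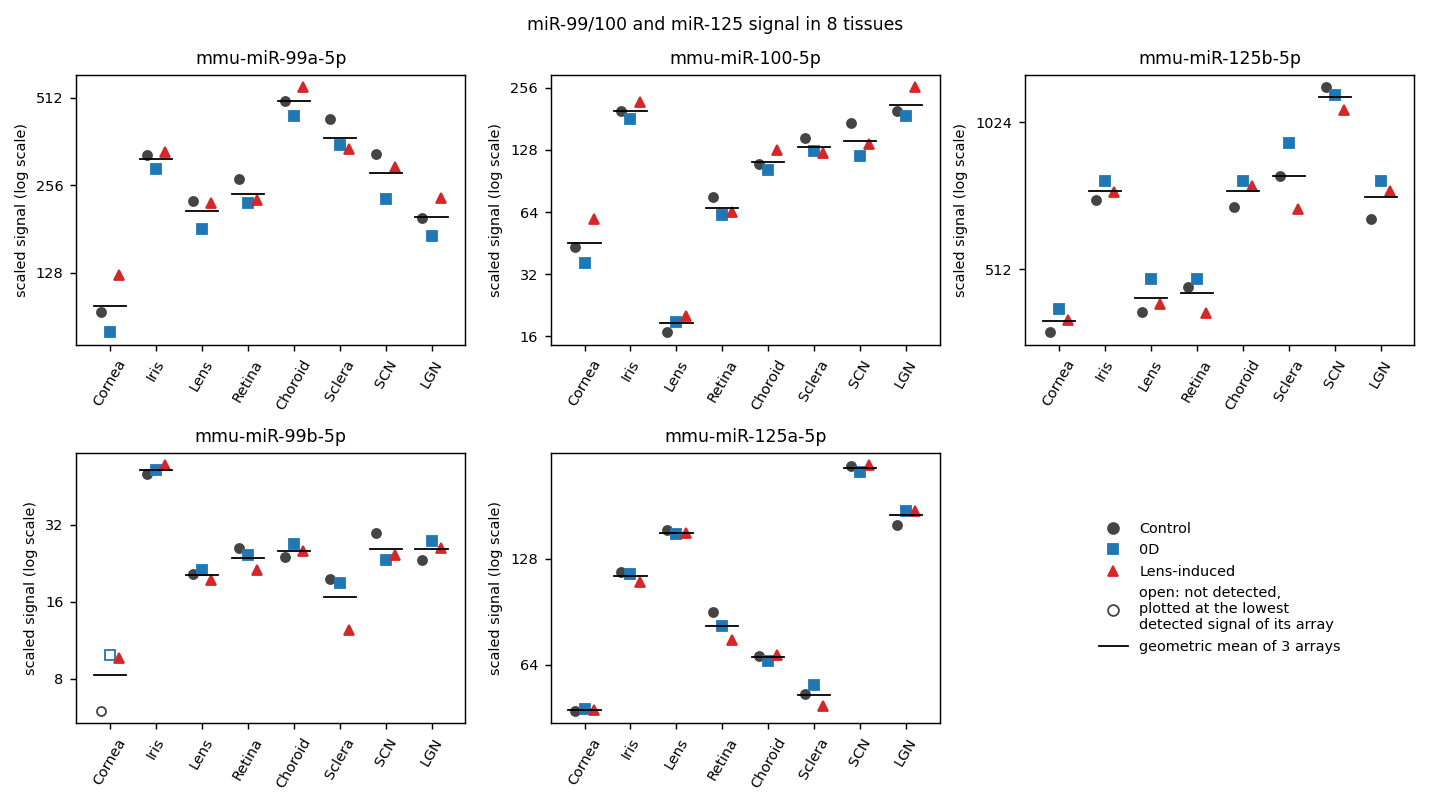
Scaled signal (log axis) of the 5 miRNAs in each of the 24 arrays by tissue, with the lens group as colour and shape, a line at the geometric mean of the 3 arrays, and open symbols for arrays without detection, placed at the lowest detected signal of the array. The arrays of a tissue lie close together beside the differences between tissues, for example miR-100 at 16.7 to 20.0 in lens and 187 to 259 in LGN.

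miR-99a was highest in choroid, at a scaled signal of 501 in Control, 443 in 0D and 559 in Lens-induced. Sclera followed with 432, 351 and 342 in the same order, and overlapped none of the choroid arrays. Cornea was lowest with 93.6, 79.7 and 126, below every other array. The difference between choroid and cornea was 5.09-fold (95% interval 4.17 to 6.21, n = 3 arrays each, limma adjusted p = 4.83e-11). From sclera downwards, through iris (geometric mean 316), SCN (282), retina (239), lens (209) and LGN (198), no step to the next tissue was called before LGN, the largest being 0.24 on the log2 scale (95% interval -0.05 to 0.53, limma adjusted p = 0.121). Tissues farther apart in this order did differ, such as sclera and LGN (1.88-fold, limma adjusted p = 9.82e-06).

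miR-100, which differs from miR-99a by 1 base, had another order. It was highest in LGN, at 198 in Control, 187 in 0D and 259 in Lens-induced, and in iris, at 198, 180 and 218, and the difference between these 2 tissues was not called (log2 difference 0.10, 95% interval -0.23 to 0.43). The lens was lowest by far, at 16.7, 18.8 and 20.0, under every array of the other 7 tissues. In the lens only the brighter of its probes passed 3 errors, with a signal of 3.48 to 4.57 errors, so that these values lie close to the limit of detection. LGN was 11.5-fold above lens (95% interval 9.16 to 14.5, limma adjusted p = 1.83e-12), the widest range among the 4 miRNAs detected on every array. This fold sets sums of 2 probes in LGN against 1 probe in lens. Where both probes passed, the dimmer had a median of 19.5% of the brighter. After a normexp background correction, where an offset of 50 is added to each spot before the dim arrays are scaled up, lens and cornea both came to lie above retina (by 0.26 on the log2 scale, limma adjusted p = 0.00476, and by 0.27, limma adjusted p = 0.00333). Cornea had 43.1, 36.1 and 59.2, between lens and retina (75.5, 61.7 and 63.9), and each of these steps was called.

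miR-125b, the miRNA shared by both clusters, had the narrowest range among these 4. SCN was highest, at 1211 in Control, 1163 in 0D and 1085 in Lens-induced. Its step to sclera (796, 930 and 680) was 0.53 on the log2 scale (95% interval 0.31 to 0.76, limma adjusted p = 2.5e-04). Below SCN the tissues formed 2 groups. Sclera, choroid, iris and LGN had geometric means of 721 to 796 and none of their pairs was called. Retina, lens and cornea had 402 to 457, and none of their pairs was called. The step between the groups, from LGN to retina, was 0.66 (95% interval 0.43 to 0.89, limma adjusted p = 2.9e-05), and SCN was 2.87-fold above cornea (95% interval 2.45 to 3.36). These groups depended on the scaling: with the percentile over the detected miRNAs of each array, choroid and SCN differed by 0.00 on the log2 scale (limma adjusted p = 0.993), and with no scaling retina and sclera differed by 0.03 (limma adjusted p = 0.884).

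miR-99b and miR-125a come from the cluster of 692 bases. miR-99b was highest in iris, at 50.4 in Control, 52.3 in 0D and 54.8 in Lens-induced. SCN, the next, had 29.8, 23.4 and 24.5, and the step was 1.03 on the log2 scale (95% interval 0.63 to 1.42, limma adjusted p = 7.8e-05). SCN, LGN, choroid, retina and lens lay between geometric means of 20.4 and 25.8, with no pair called. Sclera had 19.6, 19.0 and 12.4. In cornea miR-99b was detected in Lens-induced only, at 9.63 with an error of 2.82 within the array. Undetected arrays entered the fit at the lowest detected signal of the array (6.01 and 9.93). Summed over both probes, 3 errors amounted to 24.4 in Control, 19.5 in 0D and 16.4 in Lens-induced. Detection asks only 1 probe to pass its own 3 errors. The cornea level is therefore not known well and no fold is given. In lens too only the brighter probe of miR-99b passed, with a signal of 3.90 to 5.04 errors. The order of iris and lens turned after normexp (lens higher by 0.53 on the log2 scale, limma adjusted p = 9.72e-06) and on the printed total signal (by 2.16, limma adjusted p = 0.0336), and cornea was called above retina, choroid, sclera and LGN after normexp, by 0.29 to 0.40.

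miR-125a was highest in SCN, at 234, 225 and 236, followed by LGN at 160, 175 and 175 and lens at 154, 150 and 151. SCN exceeded LGN by 0.45 on the log2 scale (95% interval 0.25 to 0.65, limma adjusted p = 4.1e-04), while the step from LGN to lens was not called (0.16, 95% interval -0.04 to 0.37). Iris (117, 116 and 110), retina (90.1, 82.7 and 75.1), choroid (67.8, 65.4 and 68.3) and sclera (52.9, 56.2 and 48.9) followed, and each of these steps was called. Cornea had 47.4, 47.8 and 47.5, and its step from sclera was not called (0.14, 95% interval -0.06 to 0.35). After normexp, cornea was instead called above retina (by 0.23 on the log2 scale, limma adjusted p = 0.00569) and choroid (by 0.41, limma adjusted p = 2.62e-05). The lens was thus the highest ocular tissue for miR-125a and the lowest tissue for miR-100 after scaling. The place of the lens for miR-125a depended on the scaling. With none, miR-125a was lower in lens than in iris by 1.69 on the log2 scale (limma adjusted p = 1.08e-07), and with the percentile over the detected miRNAs of each array it was lower by 0.75 (limma adjusted p = 0.00250), while SCN and LGN no longer differed by more than 0.03 on the log2 scale in either. SCN was 4.87-fold above cornea (95% interval 4.23 to 5.61, limma adjusted p = 9.88e-13). On the printed total signal of the scanner files, which for 19 of the 118 detected values of the 5 miRNAs was not the sum of their probes, several orders turned, as given in the closing section.

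Whether partners of a cluster rise together was first described by correlations over the 24 arrays, without a p-value because arrays of a tissue share that tissue and each array shares 1 scaling factor. miR-100 and miR-125b had Pearson r of 0.74 (Spearman 0.63), miR-99a and miR-125b 0.59 (0.61), and miR-99b and miR-125a 0.53 (0.56). Over the 8 tissue means the Pearson values were 0.76, 0.63 and 0.54. Among the 6 pairs from different clusters other than miR-99a with miR-100, miR-99a and miR-99b had 0.60, miR-100 and miR-99b 0.51, miR-125b and miR-99b 0.51, and miR-125b and miR-125a 0.44. Of the partner pairs, that of miR-100 and miR-125b lay above all 6, and the other 2 lay within their range. miR-99a and miR-100, which are near-identical in sequence, had 0.47. The other 2 pairs, miR-125a with miR-100 (0.15) and with miR-99a (0.06), were the lowest of all 10.

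**Figure D2:**
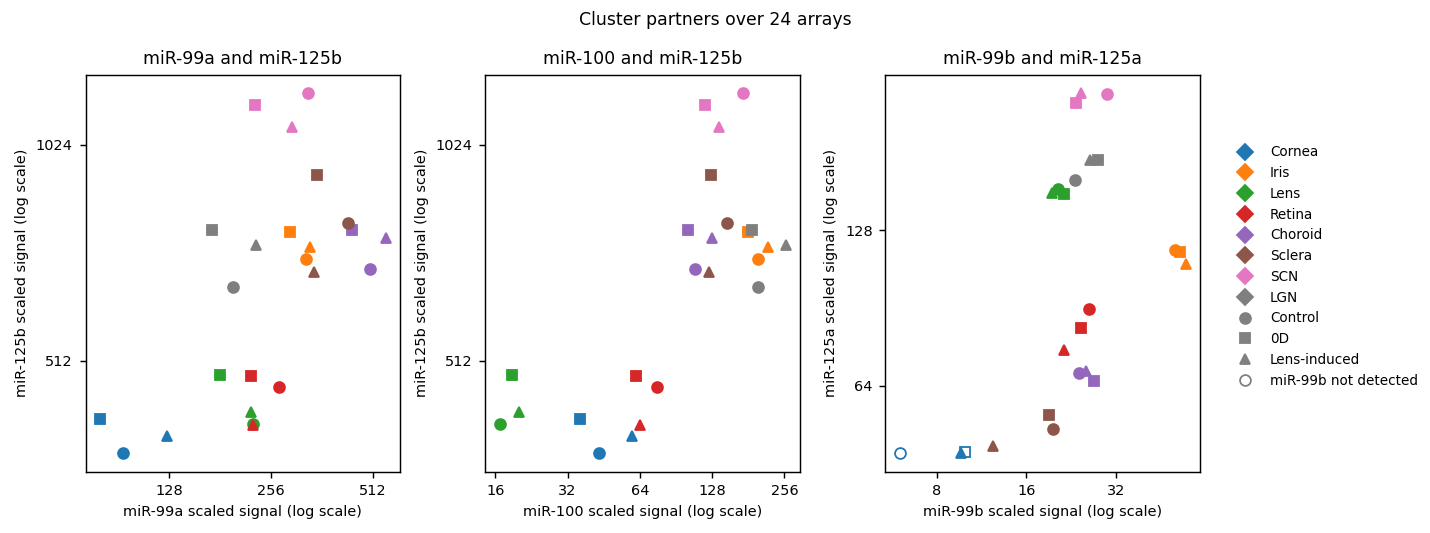
Scaled signals (log axes) of the partners miR-99a and miR-125b, miR-100 and miR-125b, and miR-99b and miR-125a on each of the 24 arrays, coloured by tissue and shaped by lens group, with open symbols where miR-99b was not detected. Cornea lies low on both axes in each panel (r = 0.59, 0.74 and 0.53), while SCN lies highest for miR-125b and miR-125a. Iris lies farthest right for miR-99b, and LGN and iris lie farthest right for miR-100.

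The correlations rested in part on the dim tissues. Without the cornea and lens arrays, r fell to 0.20 for miR-99a and miR-125b, to 0.53 for miR-100 and miR-125b, to 0.36 for miR-99b and miR-125a, and to -0.06 for miR-99a and miR-100. Without SCN and LGN, r was 0.81 for miR-99a and miR-125b, 0.79 for miR-100 and miR-125b, and 0.63 for miR-99b and miR-125a. With no scaling between arrays the 3 partner pairs had r of 0.83 to 0.95, and miR-99a and miR-100 also had 0.83. The scaling factors left out there ranged from -1.01 to 1.65 on the log2 scale, and each is shared by all miRNAs of an array. After removal of the tissue and lens group means, the residuals had r of 0.78 for miR-99a and miR-125b, 0.82 for miR-100 and miR-125b, and 0.48 for miR-99b and miR-125a, and these 6 pairs from different clusters had 0.47 to 0.76. The residuals of miR-99a and miR-100 had 0.84.

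The let-7 partners were detected on all 24 arrays, although let-7a and let-7c are also made from other loci. let-7e, whose gene lies between Mir99b and Mir125a, correlated with miR-99b with r of 0.77 and with miR-125a with r of 0.83. Among all 196 other miRNAs tested, it ranked 1st for miR-99b and 4th for miR-125a, while miR-125a ranked 14th for miR-99b and miR-99b 37th for miR-125a. let-7e was highest in SCN and iris (geometric means 1091 and 878), the tissues highest for miR-125a and for miR-99b. let-7c ranked 3rd for miR-125b (r = 0.80) and 7th for miR-99a (0.59). let-7a ranked 22nd for miR-100 (0.64) and 55th for miR-125b (0.37). The residuals after removal of the tissue and lens group means had r of 0.30 for let-7e and miR-99b and 0.24 for let-7e and miR-125a. Those of let-7c had 0.69 with miR-125b and 0.54 with miR-99a, and those of let-7a 0.48 with miR-100 and 0.44 with miR-125b. Without the lens tissue, r was 0.18 for let-7a and miR-100 and 0.10 for let-7a and miR-125b. For the let-7c and let-7e pairs it was 0.77 to 0.90.

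Ratios of 2 miRNAs within an array do not depend on the scaling and ask whether partners move by the same amount. The F-test of limma over the tissues was passed by each partner ratio, with adjusted p of 1.56e-10 for miR-99a over miR-125b, 1.34e-12 for miR-100 over miR-125b and 3.73e-09 for miR-99b over miR-125a. Again nearly all miRNAs did so, with 100% of ratios to miR-125b, 99.5% of ratios to miR-125a and 100% of ratios to miR-99a passing. Of the 28 tissue pairs, 20 were called for miR-99a over miR-125b and 23 for miR-100 over miR-125b, against 79.0% over all ratios to miR-125b. For miR-99b over miR-125a it was 22 pairs, against 80.8% over all ratios to miR-125a. The partner ratios therefore differed between tissues about as often as the ratio of any miRNA to miR-125.

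The ratio of miR-100 to miR-125b was lowest in lens, 1.78 below its mean over the 8 tissues on the log2 scale (value -1.78, SD 0.14, n = 3 arrays), and highest in LGN (1.05, SD 0.27) and iris (0.92, SD 0.18). The other tissues lay between -0.34 and 0.22. LGN exceeded lens 7.13-fold (95% interval 6.09 to 8.35, limma adjusted p = 3.55e-13). Here too the dimmer probe of miR-100 is counted in LGN but not in lens, which widens the fold. The ratio of miR-99a to miR-125b did not share this pattern. It was 0.26 in lens (SD 0.30), highest in choroid (0.79, SD 0.21), and lowest in LGN (-0.50, SD 0.28), SCN (-0.68, SD 0.27) and cornea (-0.68, SD 0.37), with choroid 2.76-fold above cornea (95% interval 2.40 to 3.17, limma adjusted p = 2.78e-10).

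The 2 clusters were set against each other by miR-100 over miR-99a, for which 27 of 28 tissue pairs were called, against 78.7% over all ratios to miR-99a. This ratio was 12.1-fold higher in LGN than in lens (95% interval 10.3 to 14.3, limma adjusted p = 4.48e-14), again with the dimmer probe of miR-100 counted in LGN only. Relative to its 8-tissue mean on the log2 scale it was 1.56 in LGN, 0.79 in iris, 0.47 in SCN and 0.34 in cornea. It was -0.04 in sclera, -0.38 in retina, -0.69 in choroid and -2.04 in lens. The SD over the 3 arrays was at most 0.10 except in lens (0.25). Lens was the lowest tissue of this ratio and of miR-100 over miR-125b with the brightest probe alone, quantile normalization and each lens group left out. It was not the lowest with normexp or the printed total signal. The other alternatives cannot move the place of lens, because these miRNAs were detected on every array and a scaling factor cancels in a ratio.

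**Figure D3:**
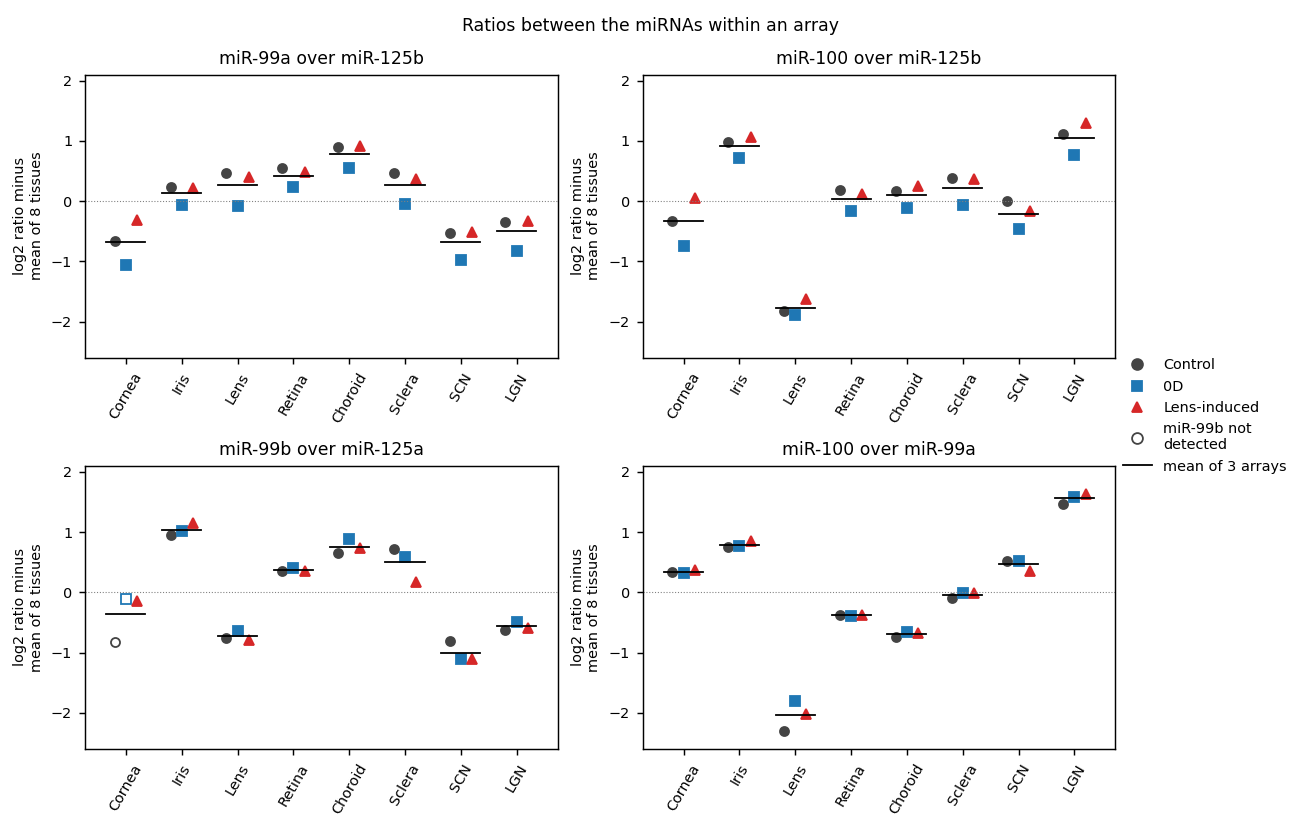
Log2 ratio of the miRNAs within each array, minus its mean over the 8 tissues, by tissue and lens group, with a line at the mean of 3 arrays and open symbols where miR-99b was not detected. miR-100 falls against both miR-125b and miR-99a in lens (means of -1.78 and -2.04), and the 0D arrays lie below the other 2 in the panel of miR-99a over miR-125b in all 8 tissues.

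miR-99b over miR-125a was highest in iris (1.04 above the 8-tissue mean on the log2 scale, SD 0.11) and choroid (0.76, SD 0.11), and lowest in SCN (-1.01, SD 0.17). Lens had -0.73 (SD 0.07), with miR-99b near its limit of detection. In lens only the brighter probe of miR-99b was counted, against both in SCN and LGN (-0.57). Where both passed, the dimmer had a median of 33.7% of the brighter, so that the place of lens below LGN rests on unlike sums. Iris exceeded SCN 4.13-fold (95% interval 3.23 to 5.27, limma adjusted p = 3.97e-09). let-7e over miR-125a was also highest in iris (0.69). It was lowest in lens (-0.76), while in SCN it was -0.02. For the miR-125 family, miR-125a over miR-125b was highest in lens (1.14, SD 0.13) and lowest in sclera (-1.22, SD 0.13), a 5.15-fold difference (95% interval 4.57 to 5.79, limma adjusted p = 1.09e-13), and 27 of 28 tissue pairs were called, against 79.0% over all ratios to miR-125b. Lens was the highest tissue of this ratio also with quantile normalization, the brightest probe alone, normexp, the printed total signal and each lens group left out. The other alternatives that kept the lens arrays could not have moved it.

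The lens groups were compared in a fit that also held a term for each of the 8 tissues. Since every lens group had a slide to itself, an effect of the slide and one of the lens cannot be told apart. Against Control, Lens-induced tissues showed no called difference in any of the 5 miRNAs, at 0% of the 197 miRNAs called (13 had an unadjusted p under 0.05). The log2 differences were 0.01 for miR-99a (95% interval -0.16 to 0.19), 0.08 for miR-100 (-0.12 to 0.29), -0.00 for miR-125b (-0.14 to 0.14), -0.03 for miR-99b (-0.27 to 0.21) and -0.04 for miR-125a (-0.17 to 0.08). For lens and slide together, the intervals of the 5 reached from a factor of 0.829 to 1.22. They measure the spread between tissue arrays and hold none between slides or mice, so that they exclude no effect of the lens alone. The study's methods give 3 mice for each of these groups, so that the ocular tissues of a group are not independent. By tissue, all 39 log2 ratios with both arrays detected lay within a factor of 2, from -0.66 for miR-99b in sclera to 0.46 for miR-100 in cornea, and the median error within the arrays was 0.19. In cornea, the dimmer probes of miR-99a and miR-100 passed 3 errors in Lens-induced only. The sums of the groups therefore hold different probes. Before scaling, miR-100 had 36.7 in Lens-induced and 21.9 in Control, or 31.1 and 21.9 on the brighter probe alone. For miR-99a the values were 78.3 and 47.5, or 71.1 and 47.5. In sclera all 5 miRNAs had lower values in Lens-induced than in Control, at -0.34 (miR-99a), -0.25 (miR-100), -0.23 (miR-125b), -0.66 (miR-99b) and -0.11 (miR-125a), with 1 array a group and no test. This was not particular to sclera. Retina also had all 5 lower, at -0.25, -0.24, -0.18, -0.27 and -0.26 in the same order, while choroid and LGN had all 5 higher. Of the 11 marker lists, 8 also had a lower sum in Lens-induced sclera than in Control sclera, among them photoreceptors (524 against 1094), neurons (327 against 596) and endothelium (242 against 393). In the same tissue, miR-184-3p of cornea and lens (275 against 123) and striated muscle (121 against 74.0) were higher. Retina also had 8 lists lower and SCN 9, against 6 in iris, 4 in choroid, 3 in cornea, 2 in LGN and 1 in lens. In cornea, where miR-99a and miR-100 were highest in Lens-induced, the endothelial sum was 86.5 in Lens-induced and 0 in the other 2 groups. The part of these cell types in the values was not tested.

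In 0D against Control, 0% of miRNAs were called (26 had an unadjusted p under 0.05), and in Lens-induced against 0D 0.508% were called, none of them among the 5. The largest differences were those of miR-99a, -0.28 in 0D against Control (95% interval -0.45 to -0.10, limma adjusted p = 0.185, lower in 8 of 8 tissues) and 0.29 in Lens-induced against 0D (0.11 to 0.46, limma adjusted p = 0.121, higher in 7 of 8). miR-125b went the other way, with 0.15 (0.01 to 0.29, limma adjusted p = 0.332, higher in 7 of 8) and -0.15 (-0.29 to -0.01, limma adjusted p = 0.281, lower in 8 of 8). Both contrasts use the same 0D arrays. With other processing 1 or 2 of the 15 differences passed, as given in the closing section.

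Because miR-99a and miR-125b lay on opposite sides, their ratio within an array was also compared between the lens groups, a comparison chosen after the values were seen. In 0D the ratio of miR-99a to miR-125b was 74.6% of that in Control (log2 difference -0.42, 95% interval -0.54 to -0.30, limma adjusted p = 1.54e-04), and it was lower in 8 of 8 tissues, by -0.29 to -0.55. In Lens-induced it was 1.35-fold that of 0D (log2 0.44, 95% interval 0.32 to 0.56, limma adjusted p = 1.05e-04), higher in 8 of 8 tissues. The difference between Lens-induced and Control was not called (0.02, 95% interval -0.11 to 0.14). The ratio of miR-100 to miR-125b had -0.33 in 0D against Control (limma adjusted p = 0.00340, lower in 8 of 8 tissues), 0.41 in Lens-induced against 0D (limma adjusted p = 6.92e-04, higher in 8 of 8) and 0.09 in Lens-induced against Control (95% interval -0.05 to 0.23). After quantile normalization the first 2 of these were not called (-0.33 and 0.27, limma adjusted p = 0.0939 and 0.246).

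Such shifts were not particular to the cluster partners, since 17.9% of all ratios to miR-125b were called in 0D against Control, 18.9% in Lens-induced against 0D and 0% in Lens-induced against Control. miR-100 over miR-99a was not called in 0D against Control (0.10, 95% interval -0.05 to 0.24) or Lens-induced against 0D (-0.03, -0.17 to 0.12), while 25.0% and 30.1% of all ratios to miR-99a were, and 0% in Lens-induced against Control. miR-99b over miR-125a was not called either (0.10, 95% interval -0.11 to 0.32, and -0.09, -0.31 to 0.12), where 1.02% and 7.14% of all ratios to miR-125a were called, and 0% in Lens-induced against Control. For let-7c over miR-125b the 0D difference was -0.12 (95% interval -0.23 to -0.01, limma adjusted p = 0.136, lower in 8 of 8 tissues). The slide holds all 8 arrays of 0D, and its part in these differences cannot be told apart from the lens.

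**Figure D4:**
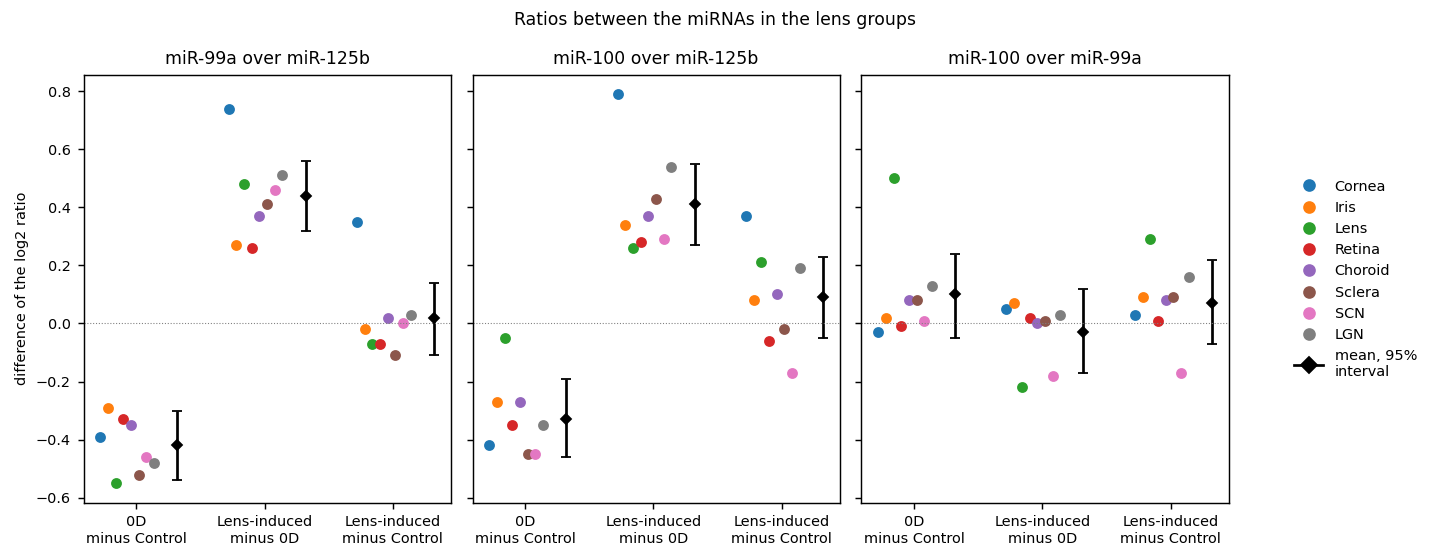
Difference of the log2 ratio within an array between lens groups, for each of the 8 tissues (coloured points) with the fitted mean and its 95% interval (diamond and bar). For miR-99a over miR-125b all 8 tissues lie below 0 in 0D minus Control (mean -0.42) and above 0 in Lens-induced minus 0D (mean 0.44), and the mean of Lens-induced minus Control is 0.02.

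By the ratio criteria of the study's methods (above 2 or under 0.5 with both arrays detected, above 5 or under 0.2 with 1 detected and the other set to 0.1), 1 of the 40 values of the 5 miRNAs passed in Lens-induced over Control and none in 0D over Control. Over all miRNAs, 17.2% of the 1780 values with at least 1 detection passed in the first and 15.6% of 1791 in the second. The value that passed was miR-99b in cornea, which was detected at 9.63 in Lens-induced and not detected in Control. Summed over both probes, 3 errors amounted to 24.4 in Control and 16.4 in Lens-induced, while detection asks only 1 probe to pass its own 3 errors. With undetected miRNAs at the dimmest signal that its array detected, the value of miR-99b did not pass.

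The miRNAs most like each of the 5 over the 24 arrays, members left out, were found by Pearson r of log2 signals. They were miR-140-3p (0.78), miR-126a-3p (0.78) and miR-140-5p (0.77) for miR-99a, and miR-652-3p (0.93), let-7i-5p (0.90) and miR-451a (0.87) for miR-100. For miR-125b they were miR-451a (0.89), miR-652-3p (0.81) and let-7c-5p (0.80). For miR-99b they were let-7e-5p (0.77), miR-324-5p (0.75) and miR-98-5p (0.74), and for miR-125a miR-34b-5p (0.94), miR-218-5p (0.90) and miR-34c-5p (0.89). miR-126a-3p is a marker of endothelium and miR-451a one of red blood cells, so that these lists were set beside the 5 miRNAs. The 2 miRNAs of the endothelium list summed to 1030 to 1208 in choroid, to 242 to 393 in sclera and to 0 in lens, with miR-126a-5p detected on 2 arrays. Of the 2 blood miRNAs, miR-144-3p was not detected on any array, and miR-451a was detected on 20 arrays, with 56.3 to 75.6 in SCN and none in the lens arrays. The part of these cells in the levels of the 5 miRNAs was not tested.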

How the data were processed

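miRNA signals were measured in 24 samples, 1 array for each of 8 tissues in 3 lens groups, so that the number of arrays limits the precision. The authors digitized 1-color arrays with Agilent Feature Extraction 10.7.1.1 (a version named in the submitters' processing notes), and the deposited files hold an intensity for each probe after background subtraction, with its error. The total signal printed for a miRNA was not always the sum of its probes (52 to 96 miRNAs per array), so that the signal was summed anew over probes above 3 times their error. Sums were scaled to an equal 75th percentile of the 79 miRNAs with a detection on each of the 24 arrays, an undetected miRNA took the dimmest signal that its array detected, and the 197 miRNAs detected on at least 12 arrays were tested on log2 values with limma 3.58.1 in R 4.3.3 (lmFit and eBayes, tissue plus lens group, Benjamini-Hochberg adjustment, called under an adjusted p of 0.05). For ratios, the log2 signal of miR-125b, miR-125a or miR-99a was subtracted on each array before the fit. The fit was tested on simulated data. The 3 arrays of a tissue come from 3 lens groups, so that p-values measure the spread between arrays after the lens group means are removed, which is partly technical. A deposited table with 24 value columns was not used, since the scanner files hold the values of each probe. The named miRNAs were the 5 miRNAs, a list of 12 related miRNAs (let-7 partners, other arms and relatives by sequence), cell type markers, and for each of the 5 the 3 most correlated miRNAs. The members and lists were chosen with earlier results of these data known. The alternatives were other scalings, other treatments of undetected miRNAs, the printed total signal, a normexp correction with an offset of 50 (on median spot signals), other detection filters, lens groups or tissues left out, an exact sign-flip permutation test and other ratio criteria. The percentile over the detected miRNAs of each array, the brightest probe alone, cornea and lens left out, each tissue left out for the correlations, and the lens group differences of the ratios were added after the data were seen. Gene positions and sequences came from RefSeq (GRCm38.p6). Python 3.11.15 with pandas 2.3.3 and scipy 1.17.1 was also used.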

Additional observations from a re-analysis of the deposited data

Results flagged for a closer look

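In 3 of 15 sets of log2 ratios between lens groups (1 ratio for each tissue), 1 tissue stood apart from the others by more than Dixon's 95% critical value, which chance alone passes in about 1 of 20 sets, and sets that share arrays are not independent. For miR-99a in 0D over Control, SCN was at -0.52, and the next tissue was at -0.33. For miR-125b in Lens-induced over 0D, sclera was at -0.45 and the next tissue at -0.23. For miR-99b in Lens-induced over 0D, sclera was at -0.61 and the next of the 7 tissues at -0.19.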

How the results depend on the processing

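The F-test called all 5 miRNAs between tissues under every alternative run that kept them. On the printed total signal, the share of tissue pairs called fell from 77.1% to 47.9% and that of the partner ratios from 77.4% to 36.9%, and 33 of the 108 called tissue differences turned their sign, 13 of them called in the new direction. With normexp 16 turned (9 called, 12 with cornea or lens), and with no scaling 6 (3 called, all for miR-125a in lens). With each lens group left out in turn, 71.4% to 73.6% of tissue pairs and 66.7% to 77.4% of partner ratio pairs were called, and no called difference turned. Of the 15 lens group differences, none was called in the main setting, 2 with no scaling (miR-125b), 2 with the brightest probe alone (miR-99a), 1 with miRNAs detected on all 24 arrays (miR-99a) and 1 with normexp (miR-125b). The exact sign-flip test gave 6 at an unadjusted p under 0.05, where the smallest p it allows is 0.00781. With any tissue left out none was called. Of 297 such differences under the alternatives, 35 changed sign while not called in either setting. The 0D arrays were scaled by -0.24 on the log2 scale against Control, which moves every difference with 0D that is not a ratio. The correlation of miR-99a and miR-125b (0.59) was 0.89 with no scaling, 0.87 with the percentile over the detected miRNAs of each array, 0.81 without SCN and LGN and 0.20 without cornea and lens. That of miR-100 and miR-125b (0.74) was 0.95, 0.91 and, on the printed total signal, -0.11. That of miR-99b and miR-125a (0.53) was 0.83 with no scaling, and without cornea 0.27. That of miR-99a and miR-100 (0.47) was 0.83 with no scaling, 0.76 with the percentile over the detected miRNAs, -0.48 on the printed total signal, -0.06 without cornea and lens and 0.08 with normexp. The 1 value past the ratio criteria in Lens-induced over Control became 0 with undetected miRNAs at the lowest detected signal. The ratio of miR-99a to miR-125b kept its calls in 0D against Control and in Lens-induced against 0D under every alternative run. That comparison was chosen after the values were seen. Neither a scaling factor nor the treatment of undetected miRNAs can change its values, since both miRNAs were detected on all 24 arrays. The ratio of miR-100 to miR-125b lost its call after quantile normalization (-0.33 in 0D against Control, 0.27 in Lens-induced against 0D) and on the printed total signal (-0.31 and, reversed, -0.07). Except for the printed total signal, which does not sum the probes, the cause of these changes was not tested. The planned percentile over all 1881 miRNAs was not run, because it fell within the signal of undetected miRNAs and was below 0 on 1 array. Signals near 3 errors (miR-100 in lens, miR-99b in lens and cornea) limit what ratios can show there.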
